A study of Bos taurus with 72 samples.

Results

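TLR2, TLR4 and CD14 are receptors through which white blood cells sense bacteria, and their transcripts were followed here in the blood of beef cattle over a feedlot period. They were taken from the count table by the bovine Ensembl identifiers ENSBTAG00000008008 (TLR2), ENSBTAG00000006240 (TLR4) and ENSBTAG00000015032 (CD14). These are 3 of the 24616 genes in the table, and all 3 were among the 12655 genes left by the filter on low counts. The choice of identifiers gave the symbols, and the files do not pair identifiers with names.

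Whole blood was drawn from the same 24 male beef cattle at entry to the feedlot, when they were pulled, and at close-out, which gave 24 libraries per stage and 72 in all. In feedlot practice a pulled animal is taken out of its pen for examination or treatment, and close-out is the end of feeding. The series title names bovine respiratory disease as the subject, and the labels give no diagnosis, pathogen, breed, age, drug treatment or number of days for any animal. Every animal is labelled male, animals were kept only if their RNA was of sufficient integrity, and no animals outside the feedlot were analysed here. Age and time on feed change with stage and cannot be told apart from it.

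Toll-like receptors bind molecules that microbes share and start a signalling chain that ends in the transcription of inflammatory genes. TLR2 works with a partner toll-like receptor and binds bacterial lipoproteins. TLR4 binds lipopolysaccharide, the outer membrane component of Gram-negative bacteria, a group that includes Mannheimia haemolytica and Pasteurella multocida of bovine respiratory disease. CD14 has no signalling domain of its own, passes lipopolysaccharide to TLR4 and assists TLR2, and serves as a surface marker of blood monocytes in cattle. Monocytes and neutrophils carry the toll-like receptors. In bulk blood, more cells of a type and more RNA per cell cannot be told apart.

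Total counts ran from 8.24 to 29.1 M (megareads) per library, with a median of 17.2 M. TLR2 was covered by 244 to 3712 reads per library, TLR4 by 484 to 6407 and CD14 by 450 to 7163, so counting error is small beside the differences between animals. Levels are given as counts per megaread (CPM) scaled by TMM, a method that evens out library composition, and changes as log2 fold changes. Gene lengths were not used, so levels are compared between libraries for the same gene and not between genes.

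The libraries hold irregularities that touch these genes. Library titles carry a number per animal, and at entry the 6 animals with title numbers above 100 stood apart from the other 18 (numbers up to 98) over most genes. Levels differed between these sets at entry for 71.7% of the genes tested, and the sets were noticed in the data and are not groups of the study. At entry the TMM factor was also 0.806 ± 0.0966 in the 6 animals and 1.14 ± 0.0876 in the 18 (SD, n = 6 and 18). The library labelled pulled of animal 9 was almost the same as the entry library of animal 11: their chi-square over its degrees of freedom was 1.46 (about 1 if they differed by counting error alone), and the next closest of 2556 pairs was at 29.1. The library labelled pulled of animal 12 did not match its own animal over 100 identity genes, with correlations of at most -0.0536, against at least 0.70 for same-animal pairs of the other 70 libraries. These genes were picked for levels that repeat over stages in the animals other than 9 and 12, so that 0.70 is partly set by the choice. The entry and close-out libraries of animal 12, which had no part in it, correlated at 0.92. Most stage changes are given with all libraries, without these doubted pulled libraries, and within each set of animals. Other values that use pulled include the doubted libraries unless stated.

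With all libraries, TLR4 and CD14 transcripts were more abundant at pulled than at entry, and TLR2 did not pass the test. The TLR4 call did not hold without the doubted pulled libraries, as given below. TLR4 had a lowest level of 36.1, a median of 136 and a highest of 327 CPM at pulled, against 41.4, 79.8 and 425 CPM at entry. The stages overlapped widely, and the highest single value in TMM-scaled CPM belonged to entry. That library, of animal 5, held 4985 TLR4 reads of 17.4 M, and its TMM factor of 0.676 was the lowest at entry. The highest value at pulled, of animal 19, came from 6407 reads of 21.7 M with a factor of 0.903. Which of these values is higher thus rests on the scaling. TLR4 was higher at pulled in 17 of 24 animals, with a log2 fold change of 0.54 ± 0.19 (SE, adjusted p = 0.0187 by edgeR), which is 1.46-fold. CD14 ran from 34.9 through a median of 141 to 430 CPM at pulled, against 38.4, 74.9 and 335 CPM at entry. It was also higher in 17 of 24 animals, and its log2 fold change was 0.66 ± 0.21 (SE, adjusted p = 0.0117 by edgeR), or 1.58-fold.

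TLR2 levels at pulled were 20.3 at the lowest, 63.1 at the median and 197 CPM at the highest, against 19.8, 53.2 and 144.7 CPM at entry. The ranges nearly coincided, with 13 of 24 animals higher at pulled and a log2 fold change of 0.20 ± 0.20 (SE, adjusted p = 0.407 by edgeR). So 2 of the 3 receptors passed the test in the upward direction, where 20.2% of all genes tested did and 42.0% passed in either direction. Without the doubted pulled libraries, CD14 kept its call (log2 fold change 0.58, SE 0.22, edgeR adjusted p = 0.0289). TLR4 then fell just short, at 0.45 ± 0.19 (SE, adjusted p = 0.0506 by edgeR). Its adjusted p was also 0.0513 without the animal as a block and 0.0841 when libraries were scaled by their totals only (edgeR), so the TLR4 call lies at the edge of the threshold.

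TLR4 and CD14 changed in the same direction within most animals. Both were higher at pulled than at entry in 16 animals and both lower in 6. All 3 receptors were higher in 11 animals and all 3 lower in 5. Sizes differed widely: the log2 change of CD14 ran from -1.46 in animal 5 to 2.38, and that of TLR4 from -1.46 to 2.09 in animal 2. Animal 5 had the highest entry levels of TLR4 (425 CPM) and CD14 (335 CPM), and at pulled it had 220 and 122 CPM.

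**Figure D1:**
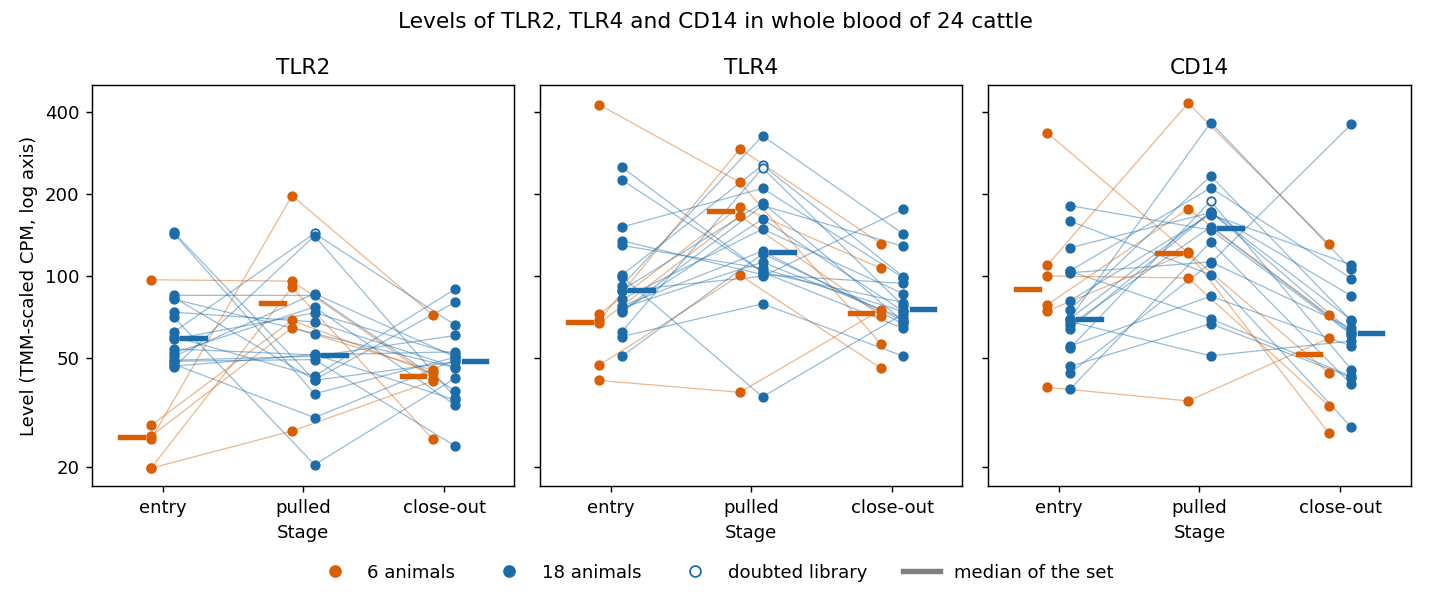
Levels of TLR2, TLR4 and CD14 in TMM-scaled CPM on a log axis for 24 cattle at entry, pulled and close-out, with a line per animal, orange for the 6 animals with title numbers above 100, blue for the other 18, open points for the doubted pulled libraries and thick bars for set medians. TLR4 and CD14 are highest at pulled in most animals, and TLR2 at entry is low in 5 of the 6 orange animals.

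By close-out the levels of TLR4 and CD14 had come down again. TLR4 fell to a median of 74.7 CPM at close-out (46.0 to 176), against 136 CPM at pulled (36.1 to 327), and was lower in 21 of 24 animals. Its log2 fold change was -0.75 ± 0.18 (SE, adjusted p = 0.00171 by edgeR). CD14 fell to a median of 61.4 CPM at close-out (26.6 to 360), against 141 CPM at pulled (34.9 to 430). CD14 was lower in 21 of 24 animals, with a log2 fold change of -1.06 ± 0.21 (SE, adjusted p = 0.000147 by edgeR), a level 0.479 times that at pulled. Ranked by p, CD14 was number 689 and TLR4 number 1263 of 12655 genes in this comparison.

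TLR2 did not pass. It had a median of 46.2 CPM at close-out (23.8 to 89.6), against 63.1 CPM at pulled (20.3 to 197), and was lower in 15 of 24 animals. The log2 fold change of TLR2 was -0.48 (SE 0.20) and missed the threshold narrowly (edgeR adjusted p = 0.0625). It passed in DESeq2 (adjusted p = 0.0355), in edgeR without the animal as a block (adjusted p = 0.0355) and in 6 of the 24 edgeR fits that left out 1 animal. Without animals 1, 4, 10, 16, 17 and 24 in turn, its log2 fold changes were -0.54, -0.54, -0.54, -0.51, -0.53 and -0.53. TLR2 lay further from the threshold in limma-voom (adjusted p = 0.111) and with the compared stages only (edgeR adjusted p = 0.101). The same held without the doubted pulled libraries (log2 fold change -0.42, edgeR adjusted p = 0.132) and with library totals only (-0.36, edgeR adjusted p = 0.237). Of the 3 receptors, 2 passed the test downward, against 13.9% of all genes tested and 27.2% in either direction. Without the doubted pulled libraries the log2 fold changes were -0.98 for CD14 (edgeR adjusted p = 0.000655) and -0.65 for TLR4 (edgeR adjusted p = 0.00753). The TMM factor was 1.04 ± 0.155 at close-out and 0.939 ± 0.0954 at pulled (SD, n = 24 each), and with library totals only CD14 (log2 fold change -0.95, adjusted p = 0.000177 by edgeR) and TLR4 (log2 fold change -0.63, adjusted p = 0.00858 by edgeR) kept their calls. All 3 receptors were lower at close-out than at pulled in 15 animals and all 3 higher in 3.

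Few animals went the other way. CD14 and TLR4 were both higher at close-out than at pulled in 3 animals, animals 4 and 10 among them. Animal 4 had some of the lowest pulled levels of all 3 receptors, 27.0 CPM for TLR2, 37.5 CPM for TLR4 and 34.9 CPM for CD14. In TMM-scaled CPM, animal 10 had the highest close-out level of each receptor. Its TMM factor of 0.766 was the lowest at close-out, which raises every level in that library. The library held 1147 TLR2 and 2251 TLR4 reads of 16.7 M. Animal 1 had 1800 TLR2 reads of 17.1 M, and animal 2 had 2668 TLR4 reads of 18.5 M. For TLR2 and TLR4 the order of animals thus rests on the scaling. CD14 of animal 10 stood far from the others, at 360 CPM, against 131 CPM in the next highest animal.

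Between close-out and entry none of the 3 receptors passed the test, where 22.2% of all genes did. TLR2 had a median of 46.2 CPM at close-out and 53.2 CPM at entry, a log2 fold change of -0.28 ± 0.20 (SE, adjusted p = 0.292 by edgeR), with 15 of 24 animals lower. TLR4 had medians of 74.7 CPM at close-out and 79.8 CPM at entry, a log2 fold change of -0.21 ± 0.19 (SE, adjusted p = 0.414 by edgeR), with 13 animals lower. CD14 had medians of 61.4 CPM at close-out and 74.9 CPM at entry, a log2 fold change of -0.40 ± 0.22 (SE, adjusted p = 0.164 by edgeR), with 16 animals lower. Before adjustment, 0 of the 3 had a p under 0.05 with edgeR or limma-voom and 1 with DESeq2, where CD14 had p = 0.0491 before adjustment and 0.122 after it. Without animal 10, CD14 passed (log2 fold change -0.55, edgeR adjusted p = 0.0336). A missed threshold does not show that the levels at close-out and entry were equal.

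Most animals had their highest TLR4 and CD14 levels at pulled. TLR4 and CD14 were each highest at pulled in 16 of 24 animals, highest at entry in 6 and highest at close-out in 2. TLR2 was highest at pulled in 11 animals, at entry in 9 and at close-out in 4. The lowest of the 3 levels fell at close-out in 15 animals for CD14, 12 for TLR4 and 10 for TLR2. Without animals 9 and 12, pulled was the highest stage in 14 of 22 animals for TLR4 and for CD14 and in 9 of 22 for TLR2.

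TLR2 behaved differently in the sets of animals, and entry was the stage at which its level passed the test between them. In the 6 animals the lowest, median and highest TLR2 levels at entry were 19.8, 25.6 and 96.9 CPM, against 46.3, 59.3 and 144.7 CPM in the 18. The highest value of the 6, from animal 5, lay inside the range of the 18, and the other 5 values, none above 28.4 CPM, lay below all of the 18. The log2 difference at entry was -0.96 ± 0.31 (SE, adjusted p = 0.00793 by edgeR) and is read beside the 71.7% of all genes that passed this test at entry. The sets were noticed from these entry libraries, so the test is not independent of how they were chosen. TLR4 and CD14 showed differences of 0.17 ± 0.39 (SE, adjusted p = 0.702 by edgeR) and 0.55 ± 0.33 (SE, adjusted p = 0.135 by edgeR) at entry. Their sign depended on the scaling: with library totals only they were -0.44 and -0.03, while that of TLR2 was -1.52 (edgeR adjusted p = 5.43e-05).

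At pulled and close-out the sets overlapped for every receptor and none of the 3 passed. TLR2 had medians of 79.8 CPM in the 6 animals and 51.5 CPM in the 18 at pulled (log2 difference 0.50, SE 0.33, edgeR adjusted p = 0.421). At close-out it had 43.0 CPM in the 6 and 48.9 CPM in the 18 (log2 difference -0.15, SE 0.21, edgeR adjusted p = 0.862). Over all genes 0 passed at pulled, both with edgeR (2245 at an unadjusted p under 0.05) and with limma-voom (2212), and 0.0316% passed at close-out in edgeR. At an unadjusted p under 0.05 the count of receptors was 0 at both stages in edgeR with all libraries. Without the doubted pulled libraries, the log2 difference of TLR2 at pulled was 0.65 ± 0.31 (SE, unadjusted p = 0.048 and adjusted p = 0.172 by edgeR). The differences of TLR2 at entry and at pulled thus had opposite signs.

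The stage changes were therefore taken within each set. In the 6 animals TLR2 was higher at pulled than at entry in 5, with a log2 fold change of 1.35 ± 0.37 (SE, adjusted p = 0.0117 by edgeR), or 2.55-fold. In the 18 animals it was higher in 8, with a log2 fold change of -0.15 ± 0.20 (SE, adjusted p = 0.497 by edgeR), and without the doubted pulled libraries it was -0.27 ± 0.20 (SE, adjusted p = 0.218 by edgeR). The difference between the sets in this change was 1.51 ± 0.42 log2 units (SE, adjusted p = 0.00145 by edgeR), and 1.63 ± 0.41 without the doubted libraries (SE, adjusted p = 0.00059 by edgeR). Such a difference passed for 68.4% of all genes tested, so it does not set TLR2 apart from the rest of the transcriptome. It also uses the entry libraries from which the sets were noticed, so the test is not independent of their choice. For TLR4 the same difference was 0.27 ± 0.44 (SE, adjusted p = 0.597 by edgeR) and for CD14 -0.45 ± 0.49 (SE, adjusted p = 0.415 by edgeR).

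The rise of CD14 at pulled passed within the 18 animals with and without the doubted libraries, and that of TLR4 passed with them included. CD14 had a median of 150 CPM at pulled (51.0 to 365), against 69.8 CPM at entry (38.4 to 181), in these 18. It was higher in 14 of them, with a log2 fold change of 0.78 ± 0.23 (SE, adjusted p = 0.00275 by edgeR). TLR4 was higher in 13 of the 18, by 0.48 ± 0.20 (SE, adjusted p = 0.0283 by edgeR). Without the pulled libraries of animals 9 and 12, TLR4 lost its call, at 0.34 ± 0.19 (SE, adjusted p = 0.108 by edgeR) with 11 of 16 animals higher. CD14 then had 0.67 ± 0.24 (SE, adjusted p = 0.0111 by edgeR) with 12 of 16 higher. In the 18 animals 33.9% of all genes passed upward in this comparison. In the 6 animals the log2 fold changes were 0.73 for TLR4 (SE 0.44, edgeR adjusted p = 0.195) and 0.32 for CD14 (SE 0.45, edgeR adjusted p = 0.594), with 4 and 3 animals higher. TLR2 was the receptor that passed in the 6, where 21.7% of genes passed upward.

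From pulled to close-out the values of both sets were below 0. The log2 fold change of CD14 was -1.23 in the 6 animals (SE 0.45) and -1.01 in the 18 (SE 0.23), and that of TLR4 -0.80 (SE 0.43) in the 6 and -0.73 (SE 0.19) in the 18. TLR2 had -0.87 (SE 0.36) in the 6 and -0.32 (SE 0.20) in the 18. CD14 and TLR4 were each lower at close-out in 5 of the 6 animals and in 16 of the 18. In the 18, CD14 (edgeR adjusted p = 0.00109) and TLR4 (edgeR adjusted p = 0.00429) passed, where 14.3% of genes passed downward. Both also passed without the doubted pulled libraries, at -0.91 (edgeR adjusted p = 0.00375) and -0.59 (edgeR adjusted p = 0.0182). In the 6, none of the receptors passed in edgeR, where 1.38% of genes passed downward, and TLR2 and CD14 had unadjusted p of 0.0304 and 0.0164. Testing this difference between both sets gave an adjusted p of 1 in edgeR for each receptor, with 0 genes called by edgeR (261 at an unadjusted p under 0.05) and 0 by limma-voom (247).

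From entry to close-out, TLR2 fell in the 18 animals, with a log2 fold change of -0.47 ± 0.19 (SE, adjusted p = 0.0325 by edgeR) and 14 of 18 animals lower, where 34.2% of genes passed downward. In the 6 animals its log2 fold change was 0.48 ± 0.36 (SE, adjusted p = 0.305 by edgeR), with 5 of 6 higher. The difference between the sets was 0.96 ± 0.41 (SE, adjusted p = 0.0373 by edgeR), with 64.6% of all genes past the threshold in that test. Here too the entry libraries served to notice the sets. With RLE scaling this difference was 0.88 (edgeR adjusted p = 0.0533), and with library totals only it was 1.58 (edgeR adjusted p = 0.00122).

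**Figure D2:**
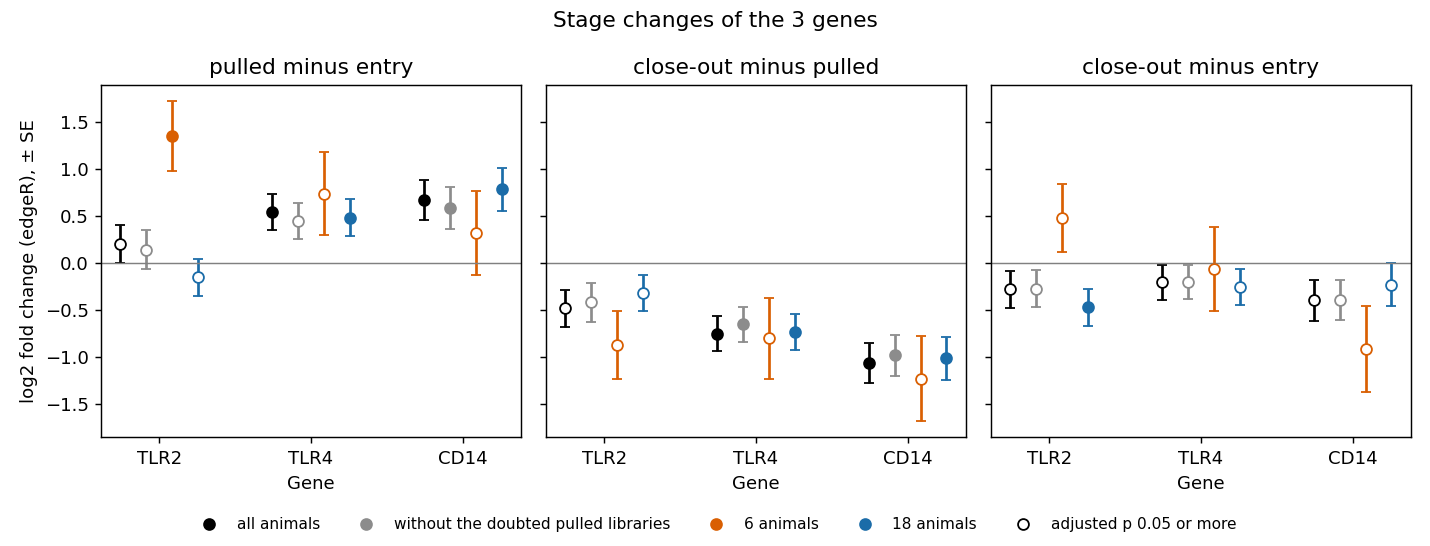
Log2 fold changes of the 3 genes for pulled minus entry, close-out minus pulled and close-out minus entry (edgeR, bars are SE), for all animals, without the doubted pulled libraries, and for the 6 and the 18 animals, with filled points where the adjusted p is under 0.05. The values of TLR2 for pulled minus entry lie apart, 1.35 in the 6 animals and -0.15 in the 18, while all values for close-out minus pulled lie below 0.

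The ratio of a pair of receptors in the same library does not depend on how that library is scaled, and its change over stages does not depend on gene length. The log2 ratio of CD14 to TLR2 was higher at pulled than at entry in all 18 animals, by 0.42 to 2.04 with a mean of 1.02 ± 0.48 (SD, n = 18). Animals 9 and 12, at 0.59 and 0.54, are counted here, but their changes use the doubted pulled libraries and may not be changes within 1 animal. It was lower in all 6 of the other set, by a mean change of -0.99 ± 0.53 (SD, n = 6). For TLR4 over TLR2 the ratio was higher in 17 of the 18 (mean change 0.67 ± 0.40, SD) and in 0 of the 6 (mean change -0.58 ± 0.40, SD). The CD14 to TLR4 ratio was higher in 11 of the 18 and in 0 of the 6. These ratios are given as a description, since the sets were noticed in the same libraries. How often other pairs of genes split the sets this way was not computed. Among single genes, 68.4% passed the edgeR test of a difference between the sets in this change.

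By stage, in the order entry, pulled and close-out, the log2 ratio of CD14 to TLR2 averaged 1.70 ± 0.39, 0.70 ± 0.47 and 0.30 ± 0.46 in the 6 animals (SD, n = 6). In the 18 animals it averaged 0.23 ± 0.43, 1.24 ± 0.47 and 0.49 ± 0.85 (SD, n = 18). At entry the ranges of the sets met at their edges, with 0.98 to 2.11 in the 6 and -0.61 to 1.11 in the 18. From pulled to close-out this ratio was lower in 5 of the 6 and in 14 of the 18 animals.

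**Figure D3:**
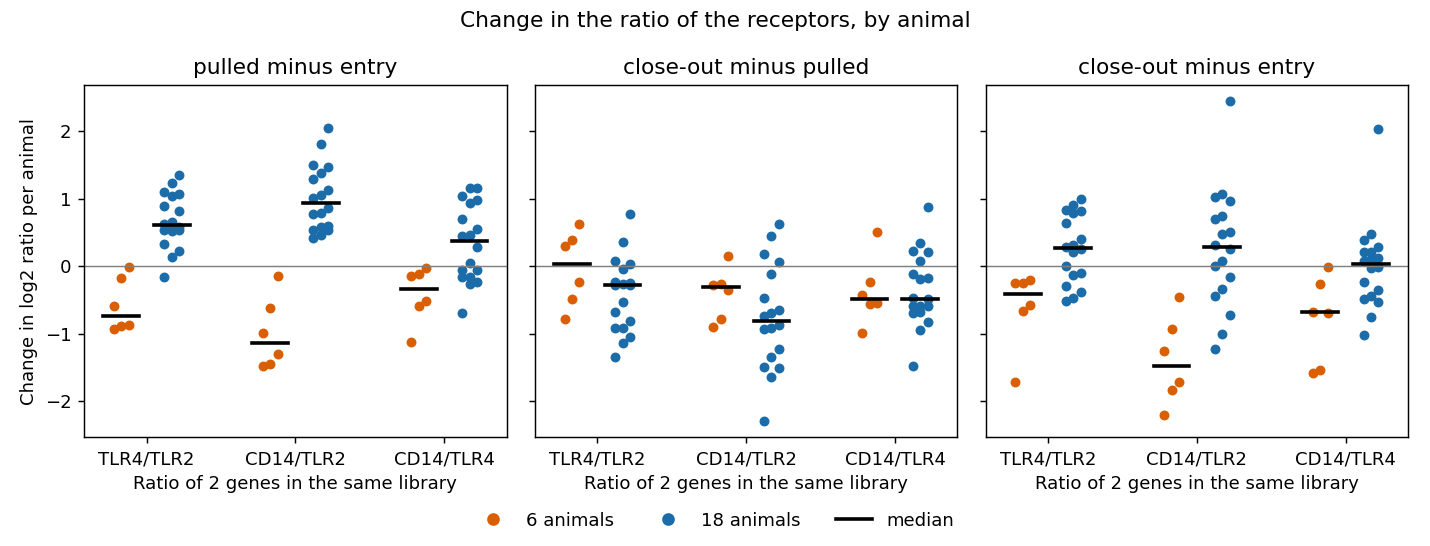
Change per animal in the log2 ratio of a pair of receptors measured in the same library, for each pair of stages, with orange points for the 6 animals, blue for the 18 and black bars for medians. For pulled minus entry the CD14 to TLR2 ratio is above 0 in all 18 animals and below 0 in all 6, and for close-out minus pulled the sets overlap. The doubted pulled libraries are included.

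Over all 24 animals, TLR2 and TLR4 had smaller SDs between animals at close-out than at the earlier stages. The SD of log2 CPM over the 24 animals, in the order entry, pulled and close-out, was 0.77, 0.78 and 0.46 for TLR2 and 0.79, 0.80 and 0.47 for TLR4. CD14 had 0.73, 0.82 and 0.80, with no such drop. Within the 18 animals the SDs, in the same order, were 0.51, 0.71 and 0.46 for TLR2 and 0.62, 0.74 and 0.45 for TLR4, so most of the gap between entry and close-out for TLR2 was absent within this set. Over all genes tested the median SD, in the same order, was 0.54, 0.49 and 0.42. These spreads were not tested against each other. At close-out the SD of CD14 was above that of 89.6% of genes tested, that of TLR4 above 57.5% and that of TLR2 above 55.5%. In CPM the highest animal exceeded the lowest 13.5-fold for CD14 at close-out, against 3.77-fold for TLR2 and 3.83-fold for TLR4. At pulled these folds were 12.4 for CD14, 9.69 for TLR2 and 9.06 for TLR4.

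The receptors varied together from animal to animal at pulled. Each relation is 1 of 27 computed, with p adjusted over the 27. At pulled TLR4 and TLR2 correlated at r = 0.89 over 24 animals (Spearman rho 0.86, adjusted permutation p = 0.000135 and 0.00027), and at 0.86 without the 2 animals with the most extreme TLR4 levels. The raw permutation p of 2e-05 is the smallest that the resampling can give. CD14 and TLR4 at pulled correlated at r = 0.85 (rho 0.81, adjusted permutation p = 0.000135 and 0.00027), and at 0.79 without the 2 extreme animals. CD14 and TLR2 at pulled gave r = 0.79 (rho 0.72, adjusted permutation p = 0.000135 and 0.00175), and 0.70 without them. Leaving out the doubted pulled libraries gave r of 0.89, 0.86 and 0.80 for these pairs, in the order TLR4 with TLR2, CD14 with TLR4 and CD14 with TLR2. Animals 2 and 19 were near the top for all 3 receptors at pulled, and animals 4 and 17 near the bottom.

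At close-out the relations were looser. CD14 and TLR4 correlated at r = 0.67 (rho 0.47, adjusted permutation p = 0.00346 and 0.0875), and at 0.53 without the 2 animals farthest from the median CD14 level. TLR4 and TLR2 gave r = 0.45 (rho 0.42, adjusted permutation p = 0.0808 and 0.135) and CD14 and TLR2 r = 0.36 (rho 0.10, adjusted permutation p = 0.183 and 0.724). The CD14 and TLR2 value rested on animals with extreme CD14, since without 2 of them r was -0.11. Whether the correlations at pulled and close-out differ was not tested.

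At entry the relations were computed within each set. In the 18 animals TLR4 and TLR2 correlated at r = 0.92 (rho 0.81, adjusted permutation p = 0.000135 and 0.00054), and at 0.80 without the 2 extreme animals. CD14 with TLR2 gave r = 0.73 (rho 0.54, adjusted permutation p = 0.00441 and 0.0875) and CD14 with TLR4 r = 0.64 (rho 0.47, adjusted permutation p = 0.0241 and 0.143). Without the 2 animals with the most extreme CD14 these were 0.42 and 0.27, so the CD14 relations at entry rested on those animals. Animals 11 and 16 carried the highest TLR2 (144.7 and 143 CPM) and TLR4 (251 and 225 CPM) of the 18. In the 6 animals r was 0.94 for TLR4 with TLR2, 0.93 for CD14 with TLR2 and 0.91 for CD14 with TLR4, none of them past the threshold (adjusted exact permutation p of 0.235, 0.0808 and 0.156). Without the 2 most extreme animals these were -0.50, 0.63 and -0.40, so TLR4 with TLR2 and CD14 with TLR4 rested on those animals.

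**Figure D4:**
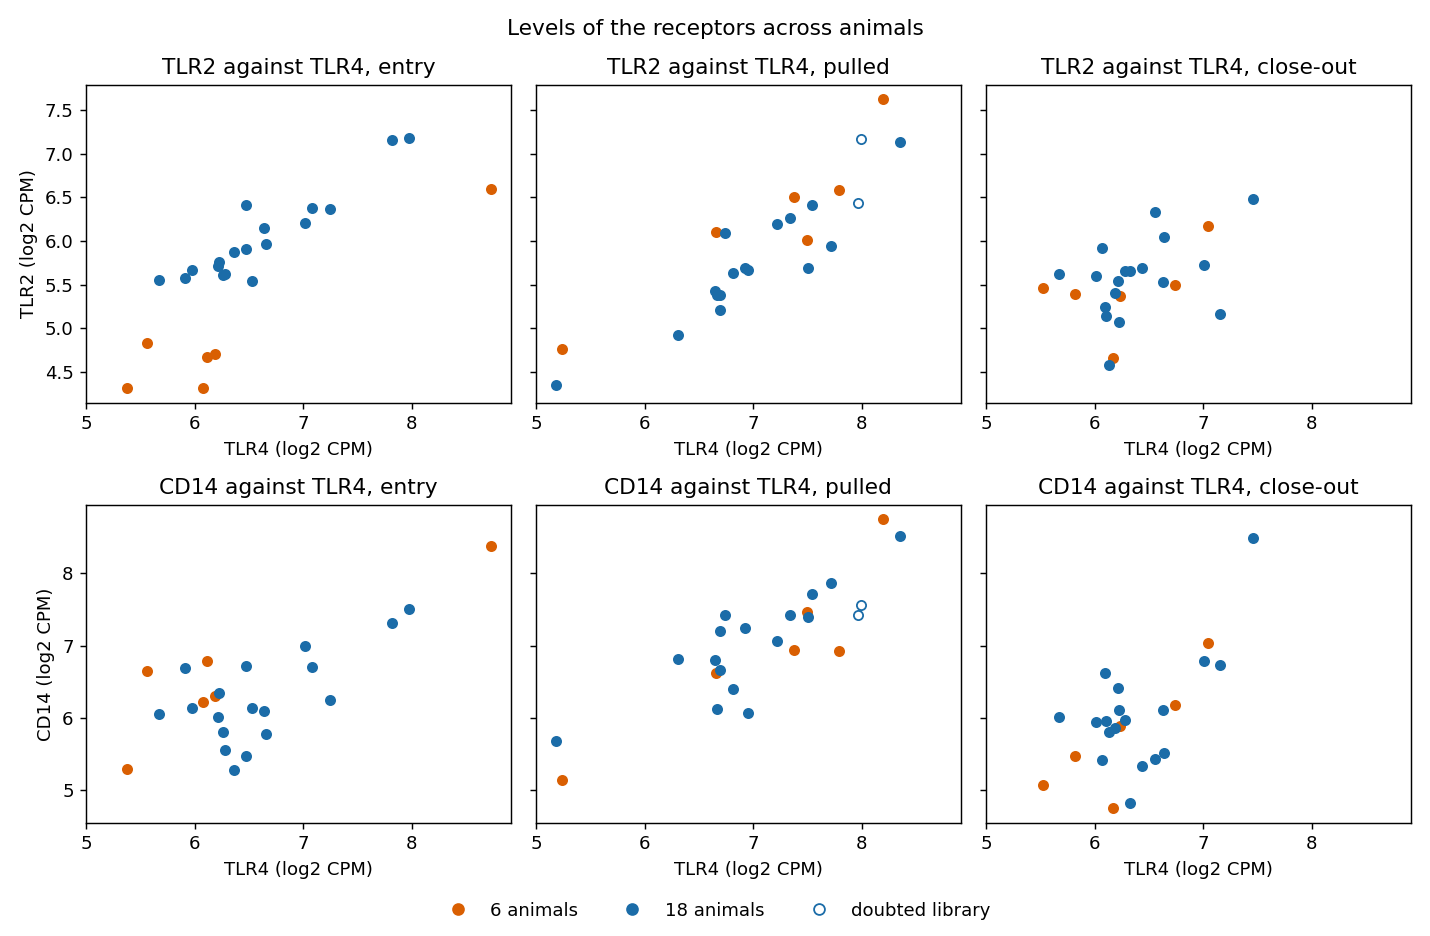
Levels of TLR2 (top) and CD14 (bottom) against TLR4 in log2 CPM, a point per animal, at entry, pulled and close-out, with orange for the 6 animals, blue for the 18 and open points for the doubted pulled libraries. Points lie close to a line at pulled (r = 0.89 and 0.85 over 24 animals) and scatter more at close-out (r = 0.45 and 0.67), and at entry 5 orange points lie below the blue ones for TLR2.

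An animal's level at 1 stage said little about its level at another. Between pulled and close-out, r over 24 animals was -0.0028 for TLR2 (rho -0.09, adjusted permutation p = 0.989 and 0.738) and 0.37 for TLR4 (rho 0.37, adjusted permutation p = 0.156 and 0.169). For CD14 it was 0.38, with a rho of 0.59 (adjusted permutation p = 0.156 and 0.0186), so the ranks of the animals were related while the linear correlation did not pass. Without the 2 animals farthest from the median CD14 level at pulled, r was 0.34. Relations of entry with a later stage had r between -0.27 and 0.21 within the 18 animals and between -0.20 and 0.53 within the 6, and none of the 12 passed in Pearson or Spearman form. The smallest adjusted permutation p among them was 0.143, for the rho of 0.83 of TLR4 between entry and pulled in the 6 animals. Without the 2 animals with the most extreme entry levels, r ran from -0.09 to 0.32 in the 18 and from -0.15 to 0.87 in the 6. The value of TLR4 between entry and close-out in the 6 went from -0.20 to 0.87, so r in the 6 rested on few animals. None of the 3 receptors was among the 100 identity genes, those with the most repeatable levels per animal.

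Over all 72 libraries, the pattern of TLR4 stood between those of its partners. As Spearman correlations of log2 CPM over the same 72 libraries, which share animals and depth and are given as a description, TLR4 had 0.75 with TLR2 and 0.74 with CD14, while TLR2 and CD14 had 0.52. These values pool the stages and also the sets, which stood apart at entry, and what the pooling adds was not tested. Taken apart, CD14 with TLR2 had a rho of 0.72 at pulled and 0.10 at close-out over 24 animals. At entry it was 0.54 in the 18 and 0.83 in the 6. Among 12654 other genes, TLR2 ranked number 82 and CD14 number 96 in likeness to TLR4. TLR4 ranked number 47 for CD14, and TLR2 number 627. For TLR2, TLR4 had a tied rank of 271.5 and CD14 ranked number 2206. The genes most like each receptor were ENSBTAG00000003326 for TLR2 (0.91), ENSBTAG00000008401 for TLR4 (0.89) and ENSBTAG00000015520 for CD14 (0.87), which no table used here names.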

How the data were processed

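RNA from PAXgene blood tubes was poly-A selected and made into TruSeq libraries, per the labels' protocols. TopHat2, HTSeq and the build UMD3.1 are named in the submitters' processing notes, while versions, annotation release and strand setting were not given in the sources used here. Counts start from a deposited table, which holds the authors' raw counts of reads for each Ensembl gene in 72 columns, of which 0 matched no sample. Reads shared between similar or overlapping genes cannot be traced from them.

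Counts were filtered by expression per stage and TMM-scaled with edgeR 4.0.16 (R 4.3.3). A quasi-likelihood model with animal as a block and stage as a factor was fitted to the whole table, with Benjamini-Hochberg adjustment over 12655 genes and a threshold of 0.05. Libraries were paired by the labelled animal number. The difference between the sets of animals was an interaction term, or the set within a stage. Log2 CPM used a prior count of 2. SE is the absolute log2 fold change over the square root of F. Correlations used two-sided permutation tests in scipy 1.17.1 (100000 resamples, exact for 6 animals). The edgeR model was run on simulated counts with known changes. These held no difference between the sets in stage change and no mislabelled library, so the run does not test the model against those features.

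The members, the sets, the doubted libraries and the lists were chosen with earlier results of these data known. The rule for named genes took the 3 receptors whatever their values, and the gene most like each. Alternatives were DESeq2 1.42.0, limma-voom (limma 3.58.1), no block, RLE scaling or library totals, other filters, a prior count of 0.5, the compared stages only, sets of animals, and leaving out doubted libraries or each animal. Lists of pathway partners and blood cell markers could not be applied, because 0 of the 24616 identifiers matched the ARS-UCD2.0 gene table. For the same reason the labelled tissue was not checked against cell markers. No sequence of the build UMD3.1 was at hand, so none is shown. With the animal as a block, p-values of stage changes and of their differences between sets measure how stage changes vary between animals. P-values for levels between the sets measure the spread between animals. Those of correlations come from permuted pairings of animals.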

Additional observations from a re-analysis of the deposited data

Results flagged for a closer look

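The change of TLR2 differed between the 6 animals whose title numbers exceed 100 and the remaining 18 in a test of the interaction. The sets were noticed from the entry libraries of these same data, and both changes below use entry. The tests are therefore not independent of how the sets were chosen. For pulled minus entry the difference was 1.51 ± 0.42 log2 units (SE, adjusted p = 0.00145 by edgeR). For close-out minus entry it was 0.96 ± 0.41 (SE, adjusted p = 0.0373 by edgeR). The shares of all genes that passed these tests were 68.4% and 64.6%, and at entry the TMM factor of the libraries also differed between the sets, 0.806 ± 0.0966 in the 6 and 1.14 ± 0.0876 in the 18 (SD). Scaled by library totals only, without that factor, the differences were larger, 2.13 for pulled minus entry (edgeR adjusted p = 3.55e-05) and 1.58 for close-out minus entry (edgeR adjusted p = 0.00122). With RLE scaling they were 1.44 (edgeR adjusted p = 0.00212) and 0.88 (edgeR adjusted p = 0.0533). The labels give no batch or date.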

How the results depend on the processing

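Depth limited none of the 3 genes, whose lowest count was 244 reads. Without the replicate block on the animal, TLR4 lost its call for pulled minus entry (log2 fold change 0.49, edgeR adjusted p = 0.0513) and TLR2 gained a call for close-out minus pulled (-0.54, edgeR adjusted p = 0.0355); the block changed no other call of the 3 genes. TLR4 for pulled minus entry also lost its call with library totals only (0.39) and without the doubted pulled libraries (0.45). TLR2 for close-out minus pulled passed in DESeq2 (-0.48). In the 18 animals TLR2 was -0.15 for pulled minus entry, a turned sign, and -0.47 for close-out minus entry, a call. In the 18 without the doubted pulled libraries, a setting chosen after seeing the data, these were -0.27 and -0.46, and TLR4 for pulled minus entry lost its call (0.34). In the 6, TLR2 was 1.35 for pulled minus entry, a call, and 0.48 for close-out minus entry, a turned sign. In the same 6 the calls were lost for TLR4 at 0.73 and CD14 at 0.32 (pulled minus entry) and at -0.80 and -1.23 (close-out minus pulled). Fewer animals enter these fits. Over the fits without 1 animal, TLR2 for close-out minus pulled ran from -0.54 to -0.41 (edgeR adjusted p 0.0363 to 0.125) and CD14 for close-out minus entry from -0.55 to -0.28 (0.0336 to 0.30).

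Between the sets, TLR2 for close-out minus entry lost its call with RLE scaling (0.88) and was 1.58 with library totals only. Signs turned with library totals only for CD14 in pulled minus entry (0.17) and for levels of TLR4 at entry (-0.44), CD14 at entry (-0.027) and TLR4 at close-out (0.016). Signs turned in limma-voom for levels of TLR4 at entry (-0.27) and CD14 at pulled (-0.11). None of these passed. With library totals only, r at close-out was 0.54 for TLR4 with TLR2, a call, and 0.48 for CD14 with TLR4, a lost call, and r between entry and close-out of CD14 in the 6 turned to 0.033. The SDs became 0.90 for TLR2 at entry, 0.56 for TLR2 at close-out and 0.67 for CD14 at close-out. The causes were not tested. Scaled by totals, higher genes made up these shares of the genes called: 25.6% for pulled minus entry, against 47.97% with TMM, 76.2% for close-out minus pulled, against 48.8%, and 58.3% for close-out minus entry, against 46.1%. The median over all genes of the log2 fold change then moved to -0.19 for pulled minus entry and 0.13 for close-out minus pulled. For pulled minus entry the genes called higher and lower were 1565 and 4539 with library totals only, against 2552 and 2768 with TMM, and 1680 were lower with the compared stages only. For close-out minus pulled they were 2786 and 872, against 1681 and 1765.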
